A study of Mus musculus with 6 samples.

Results

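Guanylate-binding proteins (GBPs) and immunity-related GTPases (IRGs) are large GTPases that most cells make after contact with interferon. Their transcripts were followed in naive B cells of mouse spleen with and without the DNA-demethylating dioxygenase TET2. The members were 10 genes given by name, the GBPs Gbp2, Gbp3, Gbp5, Gbp6, Gbp7 and Gbp9 and the IRGs Irgm1, Irgm2, Igtp and Iigp1, out of 41053 gene names in the table. RNA sequencing was made from 3 TET2 knockout and 3 TET2 wild-type libraries, numbered 2, 3 and 4 in each genotype, all from mice of the C57BL/6 strain and with no treatment. The labels give no sex, age, deleted exon or Cre driver for these mice. They do not say whether each library was made from a different mouse, and the p-values below therefore reflect how far single libraries scatter, some of which may be technical.

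GBPs and IRGs act inside the infected cell. Effector proteins of both families load onto the vacuoles of intracellular parasites and bacteria, disrupt the vacuole membrane and expose the microbe, and some GBPs also promote inflammasome activation. A smaller set of regulatory IRGs sits on the cell's own membranes and holds the effector IRGs in their inactive state until a foreign vacuole forms. Interferon-gamma switches these genes on through GAS elements in their promoters and through the interferon-stimulated response element (ISRE), which IRF factors bind.

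All but Iigp1 lie in clusters. Gbp5, Gbp7, Gbp3 and Gbp2 lie on chromosome 3 between 142496934 and 142638008 (GRCm38), a span of 141.1 kb. Gbp9 and Gbp6 lie on chromosome 5 between 105078394 and 105293699. On chromosome 11, Irgm1 spans 48861968 to 48871683, and Igtp (58199556 to 58207591) lies within the bounds of the Irgm2 model except for its first bases (58199618 to 58222779). Several counts are therefore uncertain between neighbours. Irgm2 and Igtp share 162 exon bases on the same strand, and Gbp9 shares 60 with Gbp8 and with Gbp4. In the deposited gene models, 2823 of the 5844 exon bases named Gbp5 lie inside the RefSeq gene Gbp2b, and 3528 of the 7842 named Gbp6 lie inside Gbp10, so those rows may hold reads of both genes.

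Promoter sequences are shown because the interferon elements named above can be read in them. RefSeq windows (GRCm38.p6) from 250 bases before to 50 after a transcript start were found for 7 of the 10 members, and for Gbp3 in 2 versions. Gbp6, Gbp9 and Iigp1 had no entry. The ISRE was searched as GAAA NN GAAA (N for any base, no gap) and the GAS element as TTCNNNGAA, on both strands. The GAS letters read the same on both. Below are the 100 bases from 120 to 21 upstream of the start, 5′ to 3′ on the gene's strand, with every match in capitals. For Gbp7, Irgm2 and Igtp the capitals starting with TTC and ending with GAA are GAS matches and the others are ISRE matches.
Gbp3, chr3:142559924-142560023, plus strand: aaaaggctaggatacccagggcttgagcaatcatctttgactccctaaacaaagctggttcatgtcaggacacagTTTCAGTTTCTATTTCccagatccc
Gbp7, chr3:142530216-142530315, plus strand: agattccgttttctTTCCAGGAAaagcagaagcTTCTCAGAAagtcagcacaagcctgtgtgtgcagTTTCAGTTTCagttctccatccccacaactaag
Irgm2, chr11:58214857-58214956, plus strand: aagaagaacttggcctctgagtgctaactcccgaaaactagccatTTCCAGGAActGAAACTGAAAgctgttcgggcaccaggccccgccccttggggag
Igtp, chr11:58199436-58199535, plus strand: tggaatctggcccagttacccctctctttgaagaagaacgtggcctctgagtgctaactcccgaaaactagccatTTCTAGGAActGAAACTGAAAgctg

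All 7 members with a window had an ISRE match. In Gbp3 and Gbp7 the match was on the strand opposite to the gene, and the capitals of Gbp3 are a pair of overlapping ISRE matches. In Irgm2 and Igtp the ISRE was on the gene's strand and followed a GAS match that began 11 bases before it. These matches lie in a stretch that is nearly identical between Irgm2 and Igtp, so the shared arrangement is part of that likeness. The GAS reads TTCCAGGAA in Irgm2 and TTCTAGGAA in Igtp. The longest exactly identical run of their windows, 61 bases, does not hold these matches. It starts 41 bases upstream of the start in Irgm2 and 11 in Igtp, after the ISRE, and reaches the end of the Igtp window. Counted over windows, 7 of 8 member windows (87.5%) held an ISRE, against 1131 of 32851 windows of all genes (3.44%). A GAS match was in 4 of 8 member windows, those of Gbp5, Gbp7, Irgm2 and Igtp, against 8.3% of all windows. Both together were in 4 of 8 against 0.454%. The spacing of 11 bases, chosen after these sequences were seen, occurred in 5 of 32851 windows (0.0152%), those of Irgm2, Igtp and the further IRG genes Tgtp1, Tgtp2 and Gm12185. A match is a description of letters and does not show that a factor binds there.

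**Figure D1:**
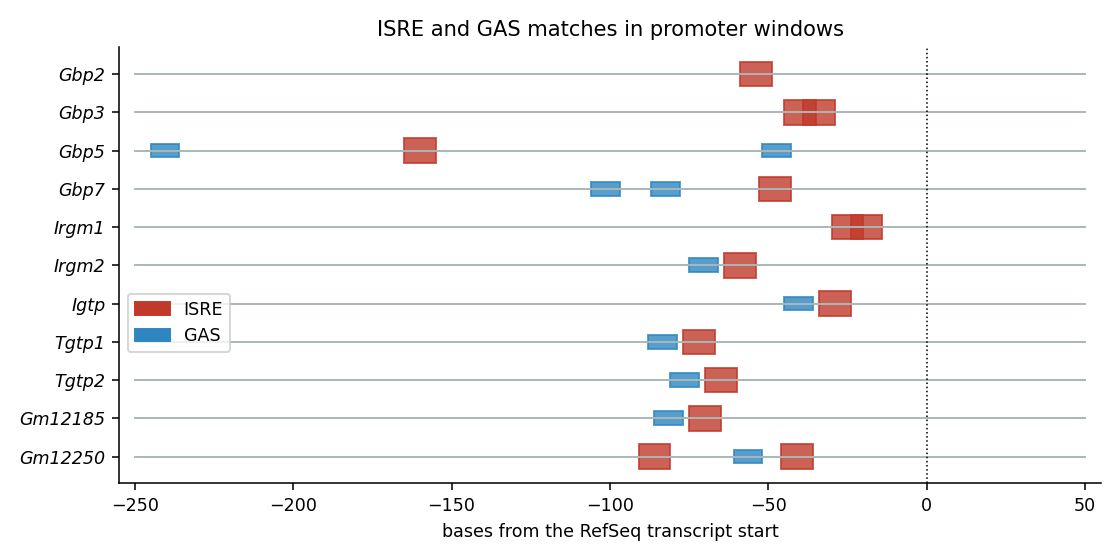
Positions of ISRE and GAS matches in RefSeq promoter windows, in bases from the transcript start (dotted line), for 7 members and 4 other IRG genes, 1 line per gene. Of 9 windows of other GBP and IRG genes, 6 held an ISRE match and 4 held both matches. The 4 other IRG genes drawn are those with both, so their matches follow from this choice. Every gene drawn has an ISRE match, and in Irgm2, Igtp, Tgtp1, Tgtp2 and Gm12185 a GAS match begins 11 bases before it.

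The libraries held 35101788 to 45401781 counts, and levels are given as CPM, a gene's count scaled to the library's total by TMM normalization. Of all gene names, 13604 passed the filter on low counts and were tested, all 10 members among them. On the second principal component (31.5% of the variance) knockout 4 and wild type 4 lay away from the remaining libraries, and their summed level of 6 heat-shock genes was 968 to 989 CPM against 354 to 465 in the other libraries. B cell markers summed to 11614 to 12943 CPM in knockout and 10755 to 12112 in wild type, with 0 of 7 called (edgeR), and Cd3e, which defines T cells, was at most 0.0722 CPM. The Y-linked genes Ddx3y, Kdm5d, Eif2s3y and Uty were at 8.04 CPM or more in every knockout library and at most 0.114 CPM in every wild-type library, and Xist was at 802 to 887 CPM in knockout against 1443 to 1537 in wild type. Every difference between the genotypes below is also a difference between libraries with and without Y-linked transcripts, and the contributions of genotype and sex cannot be told apart. In the order 2, 3, 4, Tet2 itself stood at 59.4, 64.8 and 50 CPM in knockout and at 74.7, 83.3 and 56.8 in wild type (log2 difference −0.30, SE 0.14, edgeR adjusted p = 0.408). The counts cover all exons, so this level does not check the genotype labels.

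Naive B cells without TET2 had higher mean levels of 9 of the 10 GTPase transcripts, and none passed the threshold. The log2 differences (knockout minus wild type) ran from −0.07 for Gbp9 to 4.58 for Iigp1, with a median of 0.77, where the median of all tested genes was −0.01. By edgeR's quasi-likelihood test with an adjusted p under 0.05, 0 of 10 members were called, and 0.184% of all tested genes were called higher and 0.221% lower. At an unadjusted p under 0.05, 8 of 10 members were higher and 0 lower, against 7.85% and 5.51% of all tested genes. DESeq2 called 6 of 10 members higher (Gbp2, Gbp3, Gbp5, Irgm1, Irgm2 and Igtp) and 0 lower, against 1.45% and 1.12% of all genes. Limma-voom called 0 members, against 0.147% higher and 0.184% lower. Without the filter on low counts edgeR called Gbp3, 1 of 10 members, against 0.695% of all genes higher and 0.443% lower. For 8 of 10 members every knockout library lay above every wild-type library, which held for 10.2% of all tested genes, and the reverse held for 0 of 10 members and 8.28% of all genes. The genotypes overlapped for Gbp7 and Gbp9. These are levels in bulk RNA, where more cells that make a transcript and more transcript per cell cannot be told apart.

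**Figure D2:**
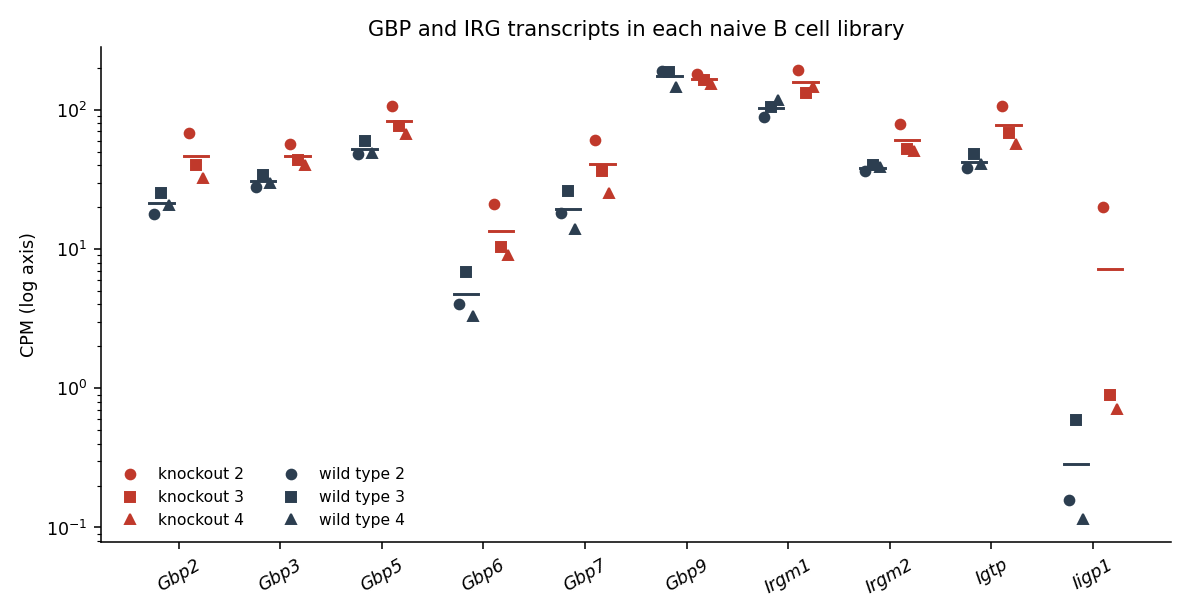
Level of each of the 10 GTPase transcripts in CPM (log axis) in each of the 3 knockout and 3 wild-type libraries, 1 point per library. Knockout library 2 is the highest of the 6 for every gene but Gbp9, and the genotypes overlap for Gbp7 and Gbp9.

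Within wild-type naive B cells the members differed widely in level. Levels of different genes were compared per length, as CPM per kb of exon (mean ± SD, n = 3). Gbp9 was the most abundant, at 47.2 ± 6.53 CPM per kb. Igtp followed at 20.97 ± 2.49 and Irgm1 at 17.8 ± 2.40, and their libraries overlapped. Next were Irgm2 at 10.6 ± 0.516, Gbp3 at 9.47 ± 1.02, Gbp5 at 8.91 ± 1.07 and Gbp2 at 8.46 ± 1.53 CPM per kb, where each neighbour overlapped the next. Gbp7 was at 3.49 ± 1.12 and Gbp6 at 0.603 ± 0.236. The lengths used for Gbp5 and Gbp6 include the exon bases inside Gbp2b and Gbp10, so their levels per kb and places in this order are uncertain. Iigp1 was the lowest, at 0.0923 ± 0.0844 CPM per kb. The regulatory IRGs Igtp, Irgm1 and Irgm2 thus all lay above the effector Iigp1 in every wild-type library.

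**Figure D3:**
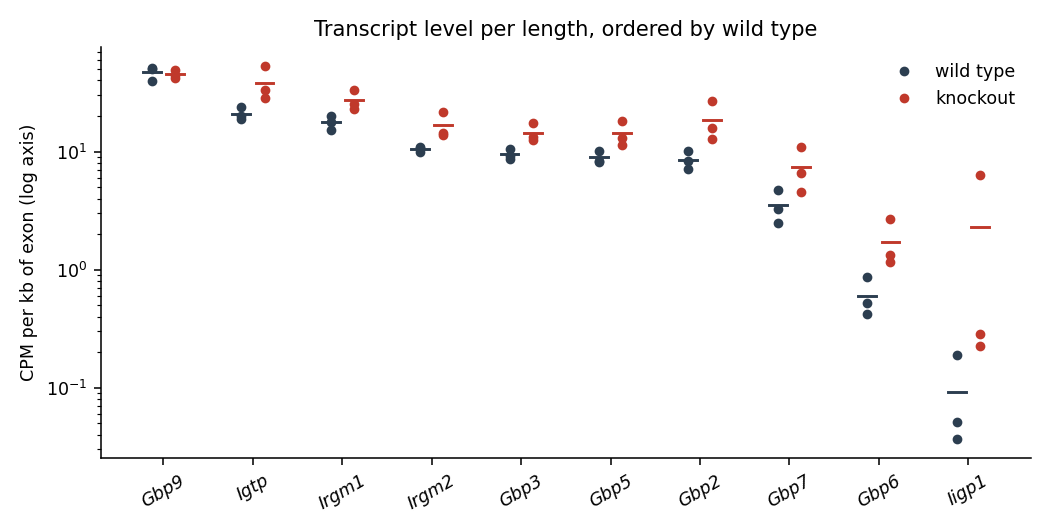
Level per length in CPM per kb of exon (log axis) for the 10 members, ordered by the wild-type mean, with 1 point per library and a line at each genotype's mean. The wild-type means run from 47.2 for Gbp9 to 0.0923 for Iigp1.

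Among the GBPs of the chromosome 3 cluster, Gbp2 had the largest difference. Gbp2, which acts at the vacuoles of Toxoplasma, stood at 67.7 CPM in knockout library 2, 39.9 in library 3 and 32.2 in library 4. Wild-type levels in the same order were 17.8, 25.4 and 20.8 CPM. The log2 difference was 1.13 (SE 0.26, edgeR adjusted p = 0.157). The genotypes did not overlap, and knockout library 2 lay well above the other knockout libraries. Gbp5, known for promoting assembly of the NLRP3 inflammasome, was at 107, 76.9 and 66.7 CPM in knockout and 48.0, 59.3 and 49.0 in wild type. Its log2 difference was 0.68 (SE 0.16, edgeR adjusted p = 0.157), again without overlap. The lowest knockout library of Gbp5 exceeded the highest wild-type library by a small margin.

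Gbp3 was the member with the smallest p and the least scattered of the cluster. Its levels were 56.7, 43.3 and 40.2 CPM in knockout and 27.9, 34.3 and 29.9 in wild type, a log2 difference of 0.61 (SE 0.14, edgeR adjusted p = 0.140). The genotypes did not overlap. Gbp7, which has been linked to assembly of the phagosomal NADPH oxidase, was at 60.2, 36.6 and 25.3 CPM in knockout and 18.2, 26.2 and 13.9 in wild type. Its log2 difference was 1.07 (SE 0.35, edgeR adjusted p = 0.291). Here knockout library 4 lay below wild-type library 3, so the genotypes overlapped.

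The chromosome 5 genes Gbp6 and Gbp9 differed from each other. Gbp6 was at 20.9, 10.4 and 9.02 CPM in knockout and 4.05, 6.82 and 3.31 in wild type, with a log2 difference of 1.5 (SE 0.37, edgeR adjusted p = 0.163). Every knockout library of Gbp6 was above every wild-type library. Gbp9 was at 180.2, 164 and 154 CPM in knockout and 190.0, 186 and 146 in wild type. Its log2 difference was −0.07 (SE 0.11, edgeR adjusted p = 0.816), and the libraries of the genotypes were interleaved, with wild type both the highest and the lowest.

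The regulatory IRGs had log2 differences between 0.61 and 0.87. Irgm1, which lies on the cell's own membranes and is linked to autophagy, was at 194, 133 and 147 CPM in knockout and 89.1, 104 and 117 in wild type (log2 difference 0.61, SE 0.15, edgeR adjusted p = 0.155). Irgm2 was at 79.0, 52.4 and 50.5 CPM in knockout and 36.3, 39.9 and 38.8 in wild type (log2 difference 0.66, SE 0.16, edgeR adjusted p = 0.157). Igtp, also called Irgm3, was at 107, 67.6 and 57.1 CPM in knockout and 38.4, 48.1 and 40.7 in wild type (log2 difference 0.87, SE 0.21, edgeR adjusted p = 0.163). None of these 3 genes overlapped between the genotypes, and in each of them knockout library 2 was the highest. The pair that shares the motif arrangement shown above, Irgm2 and Igtp, also shares exon bases, where a read cannot be assigned to only 1 of them.

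Iigp1 (chromosome 18, 60376029 to 60392627), the effector IRG also called Irga6, was at less than 1 CPM in 5 of the 6 libraries. It had 876 counts in knockout library 2, 37 and 28 in knockout libraries 3 and 4, and 7, 26 and 4 in wild-type libraries 2, 3 and 4. In CPM these were 19.9, 0.891 and 0.708 in knockout and 0.159, 0.591 and 0.114 in wild type. The log2 difference of 4.58 (SE 1.81, edgeR adjusted p = 0.377) rests on knockout library 2, and without it was 1.43 (SE 0.60, edgeR adjusted p = 0.790). The genotypes did not overlap either way, since the lowest knockout library was at 0.708 CPM and the highest wild-type library at 0.591. A level of 3 counts corresponds to 0.0679 to 0.0857 CPM, so all libraries were above it.

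**Figure D4:**
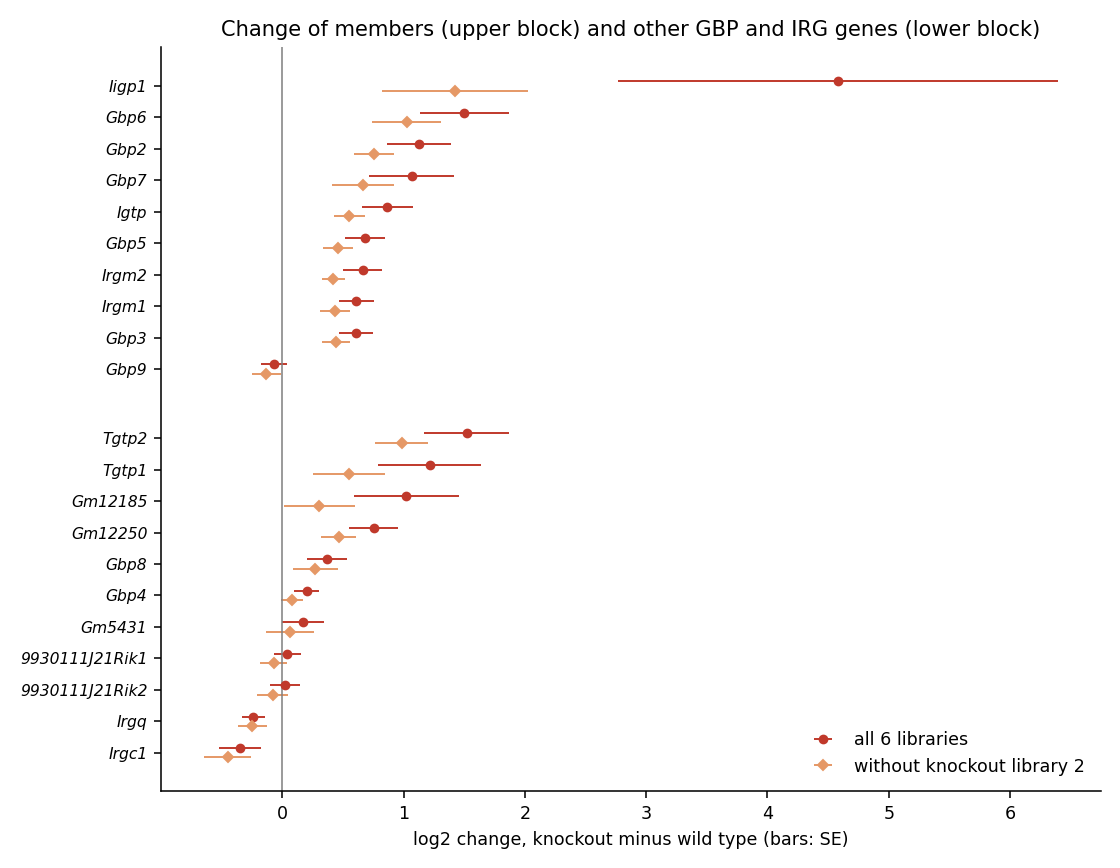
Log2 difference, knockout minus wild type, with SE, for the 10 members (upper block) and the 11 tested other GBP and IRG genes (lower block), from all 6 libraries (circles) and without knockout library 2 (diamonds). Without that library 9 of 10 members lie closer to 0 but keep their sign, and Gbp9 lies slightly below 0 in both.

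Knockout library 2 stood out for this family. It was the highest of the 6 libraries for 9 of 10 members, all but Gbp9, against 19.5% of all tested genes. Divided by the mean CPM of knockout libraries 3 and 4, its level was 24.9-fold for Iigp1, the largest such ratio of all 13604 tested genes. The ratio was 2.16 for Gbp6, 1.95 for Gbp7, 1.88 for Gbp2, 1.72 for Igtp, 1.53 for Irgm2, 1.49 for Gbp5, 1.38 for Irgm1, 1.36 for Gbp3 and 1.13 for Gbp9. The median over members was 1.63, and over all tested genes it was 1.01, with 0.735 at the 5th and 1.38 at the 95th percentile. The 12 markers of T and NK cells summed to 68.0 CPM in this library against 48.8 to 56.9 in the other 5, with 10 of the 12, Cd3e among them, under 1 CPM in every library. Most of that sum was Lck, at 64.8 CPM in knockout library 2 and 46.2 to 53.8 in the others. The 8 dendritic cell markers summed to 6.13 CPM in it against 4.14 to 5.89. The 5 plasma cell markers summed to 273 CPM against 274 to 339, while Igj, the joining chain gene among them, was at 32.9 CPM against 4.91 to 21.3. Macrophage and monocyte markers summed to 29.6 CPM in it and 26.2 to 39.6 in the others, neutrophil markers to 0.295 CPM and 0.101 to 0.963, and erythroid markers to 9.63 CPM and 7.88 to 21.4. The part of these cells in the result was not tested.

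**Figure D5:**
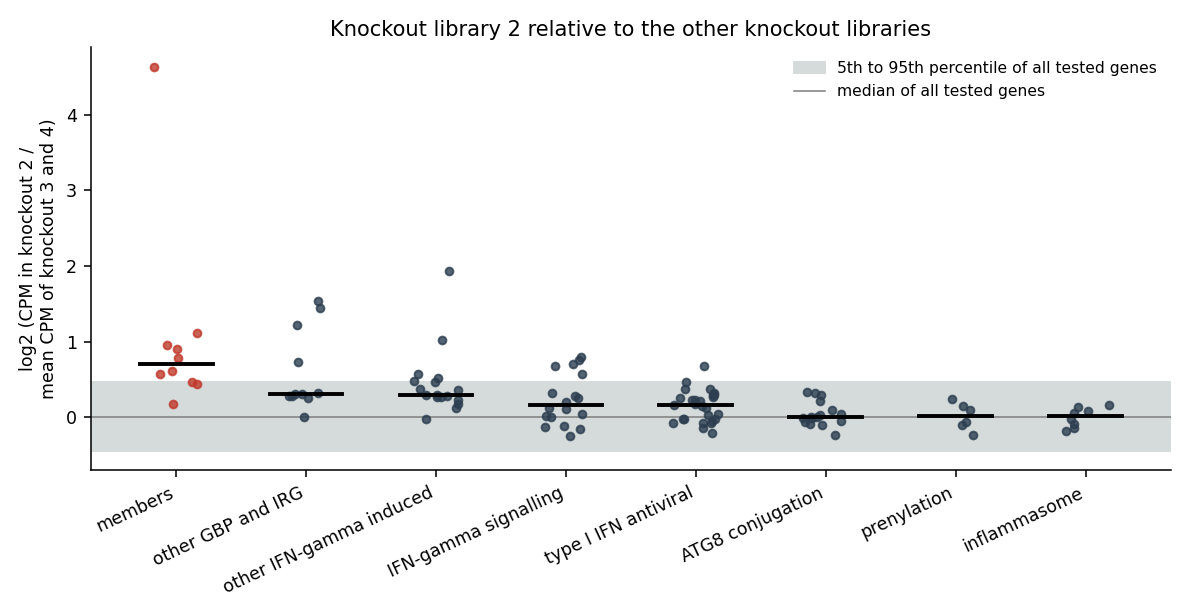
Log2 of the CPM in knockout library 2 over the mean of knockout libraries 3 and 4, 1 point per gene, for the members and 7 other gene lists, with a line at each list's median. The grey band runs from the 5th to the 95th percentile of all tested genes (ratios 0.735 to 1.38), and 1 member, Iigp1, lies at a ratio of 24.9.

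Without knockout library 2 the differences of 9 members were smaller and kept their sign, while that of Gbp9 went from −0.07 to −0.13. The median of the members was 0.51 on the log2 scale, and 9 of 10 were higher and 0 lower at an unadjusted p under 0.05, against 3.35% and 2.86% of all genes. EdgeR called 0 of 10 members, against 0.065% of all genes higher and 0.0578% lower. Gbp2 then differed by 0.76 (SE 0.17), Gbp6 by 1.03 (SE 0.28), Igtp by 0.55 (SE 0.13), Irgm2 by 0.42 (SE 0.09) and Gbp3 by 0.44 (SE 0.12). The 8 members without overlap stayed so, since library 2 was the highest knockout library for each of them. Without knockout library 4, edgeR called Gbp2 (adjusted p = 0.0407) and Igtp (adjusted p = 0.0469), 2 of 10 members, against 0.424% of all genes higher and 0.626% lower. Among the wild-type libraries, library 3 was the highest for 8 of the 10 members, Gbp9 and Irgm1 being the exceptions.

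The members varied together across libraries, apart from Gbp9. Over the 6 libraries the correlations of log2 CPM in the 36 pairs without Gbp9 ran from 0.771 to 0.997 with a median of 0.96. The 9 pairs with Gbp9 ran from −0.25 to 0.34 with a median of 0.11. These describe 6 libraries that share genotype and the high knockout library 2. Among the genes outside the family most like the members' mean profile, by correlation among 8910 candidates, were Tapbpl (0.997), a chaperone of MHC class I peptide loading, Irf9 (0.997), a DNA-binding subunit of the complex that type I interferon activates, Stat3 (0.994), the immunoproteasome subunit Psmb9 (0.986), H2-T22 (0.985), Rrp1 (0.985) and Serpinb9 (0.984), an inhibitor of granzyme B. Candidates had a mean of at least 5 CPM and no Gm, Rik or clone name.

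Within the libraries numbered 2 and 3, and within the libraries numbered 4, the direction was the same for 9 members and not for Gbp9 (−0.13 and 0.07). In libraries 2 and 3 alone the log2 differences were 1.32 for Gbp2, 0.69 for Gbp3, 1.53 for Gbp6, 0.76 for Irgm1 and 1.02 for Igtp. In the libraries numbered 4 the single ratios on the same scale were 0.64, 0.43, 1.45, 0.33 and 0.49 for those genes. With libraries 2 and 3 alone, 0 of 10 members were called by edgeR, where 13.6% of all genes were called higher and 10.4% lower. With a term for the libraries numbered 4, Gbp3 was called (log2 difference 0.60, edgeR adjusted p = 0.0349), 1 of 10 members against 2.59% of all genes higher and 1.81% lower. The genotype difference was not called as differing between libraries 4 and the rest for any member by edgeR (0 of 10), 0 members being at an unadjusted p under 0.05 and the smallest unadjusted p being 0.0703 for Gbp9. Over all genes 0.588% and 0.603% were called in the 2 directions. Gbp9 was the only member called for the term itself. It was lower in the libraries numbered 4 by 0.26 (edgeR adjusted p = 0.0264), where 6.95% of all genes were called lower and 7.83% higher.

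Further members of both families were read from a list of 18 names, of which 14 had a row and 11 were tested. None of the 11 was called by edgeR. At an unadjusted p under 0.05 (edgeR), 4 were higher and 1 lower, against 7.85% and 5.51% of all tested genes. DESeq2 called 2 higher and 0 lower, against 1.45% and 1.12%, and limma-voom called 0. Of the 11, 9 had a positive log2 difference, with a median of 0.20. Without knockout library 2, 7 of the 11 were positive and the median was 0.08. In that fit 2 were higher and 0 lower at an unadjusted p under 0.05 (edgeR), against 3.35% and 2.86% of all genes. The largest difference was that of Tgtp2. Tgtp2, which encodes the effector Irgb6, was at 22.9, 10.02 and 9.63 CPM in knockout and 3.85, 6.39 and 4.60 in wild type (log2 difference 1.52, SE 0.35, edgeR adjusted p = 0.154). Its near-identical copy Tgtp1 differed by 1.21 (SE 0.42), and by 0.55 without knockout library 2. Counting used no multi-mapping option, so reads that fit both copies may be missing from both. Gm12185 differed by 1.02 (SE 0.43), and by 0.31 without that library. Gm12250, also called Irgb10, differed by 0.75 (SE 0.20). Knockout library 2 was the highest library for 9 of the 11, against 19.5% of all tested genes.

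The remaining genes of that list had smaller values or negative ones. Gbp8 differed by 0.37 (SE 0.16) and Gbp4 by 0.20 (SE 0.10), and Gm5431 by 0.17 (SE 0.17). The genes 9930111J21Rik1 and 9930111J21Rik2 differed by 0.04 (SE 0.11) and 0.02 (SE 0.12), with the sign turned by scaling to library totals alone (−0.01 and −0.03). Irgq, an IRG-like gene, differed by −0.24 (SE 0.09), and Irgc1, which is known from testis, by −0.35 (SE 0.17). Gbp11, Gm4951 and F830016B08Rik were at most 0.182 CPM in any library and were not tested. Among giant and dynamin-like GTPases induced by interferon, 4 of 5 tested genes were positive with 0 called by edgeR. At an unadjusted p under 0.05 (edgeR), 3 were higher and 0 lower, against 7.85% and 5.51% of all tested genes. DESeq2 called 2 higher, against 1.45%. The positive values were led by Gm4070 at 0.97 (SE 0.24), the giant GTPase Gvin1 at 0.65 (SE 0.17) and the antiviral Mx1 at 0.33 (SE 0.14).

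The receptor chains upstream of these genes had log2 differences near 0, while that of Irf1 was larger. Ifngr1 was at 105, 106 and 119.7 CPM in knockout and 103, 102 and 119.8 in wild type (log2 difference 0.03, SE 0.09). Ifngr2 differed by 0.02 (SE 0.11). Irf1, a transcription factor that is itself an interferon target, was at 336, 217 and 236 CPM in knockout and 169, 208 and 166 in wild type (log2 difference 0.54, SE 0.16, edgeR adjusted p = 0.224). The genotypes of Irf1 did not overlap, and knockout library 2 was the highest. Irf9 differed by 0.28 (SE 0.09) and Irf2 by 0.23 (SE 0.09). Ifng, the ligand, was at 0.136 to 0.343 CPM in all libraries. Of the 18 tested genes of this list 15 were positive, with a median of 0.16 and 0 called by edgeR. At an unadjusted p under 0.05 (edgeR), 4 were higher and 0 lower, against 7.85% and 5.51% of all tested genes. DESeq2 called 1 higher, against 1.45%. Without knockout library 2 the median was 0.06. In that fit 2 were higher and 0 lower at an unadjusted p under 0.05, against 3.35% and 2.86%.

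Other genes that interferon-gamma induces had the same sign. Of 17 tested, 16 were positive with a median of 0.40. Higher in knockout were 16 at an unadjusted p under 0.05, 0 by edgeR's adjusted p, 5 by DESeq2 and 12 without overlap, against 7.85%, 0.184%, 1.45% and 10.2% of all tested genes. Without knockout library 2, 9 of 17 were at an unadjusted p under 0.05, against 3.35% of all genes. Ifi47, an IRG-like GTPase also called Irgd, was at 166, 115 and 123 CPM in knockout and 63.2, 76.9 and 92.5 in wild type (log2 difference 0.80, SE 0.16, edgeR adjusted p = 0.114). The proteasome activator genes Psme2 and Psme1 differed by 0.55 (SE 0.13) and 0.46 (SE 0.11), and the immunoproteasome subunit Psmb8 by 0.40 (SE 0.10). Type I interferon antiviral genes were positive in 27 of 27 with a median of 0.39. Of them 22 were at an unadjusted p under 0.05 and 21 had no overlap, against the same 7.85% and 10.2%. Without knockout library 2, 14 were at an unadjusted p under 0.05, against the same 3.35%. Ifi44 rose and was the only gene of the lists called (23.3, 19.6 and 16.5 CPM against 6.93, 10.9 and 9.17, log2 difference 1.14, SE 0.18, edgeR adjusted p = 0.0432). Without knockout library 2 the difference of Ifi44 was 1.0 and no longer passed (edgeR adjusted p = 0.249). DESeq2 called 11 of the 27, against 1.45% of all genes. Oas3 differed by 0.59 (SE 0.10, edgeR adjusted p = 0.0598), and Oas1a and Rsad2 by 0.61 (SE 0.13) and 0.75 (SE 0.18). For these antiviral genes knockout library 2 was the highest in 16 of 27, and in 16 of 17 of the other interferon-gamma induced genes. Over all tested genes this share was 19.5%, so the lead of that library was not particular to the GBP and IRG genes.

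Genes that place or modify GTPases of these families had medians close to 0. Genes of ATG8 conjugation, which helps direct GBPs and IRGs to vacuoles, were listed with associated factors such as Sqstm1 and Trim21. Of 16 tested, 12 were positive, with a median of 0.09 and 0 called by edgeR or DESeq2. At an unadjusted p under 0.05 (edgeR), 2 were higher and 1 lower, against 7.85% and 5.51% of all tested genes. Atg16l1 differed by −0.26 (SE 0.08), Gabarap by 0.25 (SE 0.10), Sqstm1 by 0.17 (SE 0.07) and Trim21 by 0.19 (SE 0.10). The prenylation enzymes, which attach or process the lipid anchor of some GBPs, had a median of 0.04. Of these, 0 of 6 were called and 0 were at an unadjusted p under 0.05. Their values were 0.16 (SE 0.08) for Zmpste24, 0.17 (SE 0.12) for Pggt1b and 0.04 for Fnta (SE 0.10) and Fntb (SE 0.10), the last pair with a sign that turned by scaling to library totals. Among inflammasome genes 4 of 8 were positive, with 0 called by edgeR. At an unadjusted p under 0.05 (edgeR), 3 were higher and 1 lower, against the same 7.85% and 5.51%. DESeq2 called 2 higher, against 1.45% of all tested genes. Naip2 was at 0.55 (SE 0.11, edgeR adjusted p = 0.114), Casp4 at 0.36 (SE 0.09), Pycard at 0.38 (SE 0.13) and Nlrc4 at −0.24 (SE 0.09). Limma-voom called 0 genes of the pathway lists described here.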

How the data were processed

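The deposited table holds whole-number counts of fragments per gene name, made by the authors with featureCounts 1.5.1 over exons of GENCODE vM3 on GRCm38 with paired fragments and no strand or multi-mapping option, per the file headers. Libraries were stranded mRNA libraries, per the labels' protocols. Because the counting used no strand option, reads of overlapping genes on opposite strands cannot be told apart in these counts. Alignment used STAR 2.3.0e and the build GRCm38.p3, per the submitters' processing notes. The table's exon length per gene, given in bases by the deposited table, was used for levels per kb. A further 6 count columns matched no sample in the labels and were not used here.

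From these counts, CPM were computed with TMM-scaled library sizes, where 3 counts correspond to 0.0679 to 0.0857 CPM. Of 23019 gene names with a count, 13604 passed filterByExpr (minimum count 10). Knockout was tested against wild type by edgeR 4.0.16 (quasi-likelihood, robust, all 6 libraries) in R 4.3.3, with Benjamini-Hochberg adjustment over all tested genes and a threshold of 0.05. The fit was tested on simulated data. SE are of log2 differences. Correlations used log2 CPM with a prior count of 2. Alternatives were DESeq2 1.42.0, limma-voom (limma 3.58.1), no scaling, other filters, a replicate block, a term for libraries 4, libraries 2 and 3 alone, and leaving out each library. Named were all members, all measured genes of the list of further family genes, Tet2, up to 4 genes with the smallest p in each other list and the 8 genes most like the members. Ifngr1, Ifngr2, Ifng, Igj and the sex-linked genes were named as further examples of their lists, and genes most raised in knockout library 2 as described, after their values were seen. Some genes that this rule names are not reported here. The members and lists were chosen with earlier results of these data known. The floor of 3 counts covers counting error only, while SE also hold the variation between libraries.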

Additional observations from a re-analysis of the deposited data

How the results depend on the processing

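The positive sign was kept by 8 members under all 16 alternatives and by Iigp1 under the 14 that gave it an adjusted p (it did not pass the filter of 1 CPM in 3 libraries, and DESeq2 gave none), and Gbp9 stayed negative (−0.18 to −0.00082). Of the 10 members, DESeq2 called 6, the term for libraries 4 called 1 (Gbp3), no filter on low counts called 1 (Gbp3), and leaving out single libraries called 0 to 2 (Gbp2 and Igtp, without knockout library 4, edgeR adjusted p = 0.0407 and 0.0469). The members' median log2 difference ranged from 0.51 to 0.93 over these leave-one-out fits. Over all genes the 25 called higher became 160 with no filter, 197 with DESeq2, 353 with the term for libraries 4 and 1871 with libraries 2 and 3 alone, and 9 to 630 with single libraries left out, 630 without wild-type library 4. The 30 called lower became 102, 152, 246 and 1436 in that order, 50 with the replicate block and 8 to 270 leaving out single libraries. In the other lists the 1 called higher became 15 with no filter, 0 with a filter of 1 CPM in 3 libraries, 23 with DESeq2, 0 with limma-voom, 18 with the term and 47 with libraries 2 and 3 alone, and 0 to 21 leaving out single libraries. The 0 called lower became 1 with the term and 5 with libraries 2 and 3 alone. The cause of these shifts was not tested.

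Libraries of the same number were not taken as pairs. Their deviations correlated at 0.0857, 0.220 and 0.394 for numbers 2, 3 and 4, and knockout library 2 correlated best with wild-type library 3 (0.239). With a replicate block 0 of 10 members were called, 35 genes were higher and 50 lower, and the members' median was 0.74. Signs turned for 9930111J21Rik1 (−0.00594 without scaling, −0.0706 to 0.131 leaving out single libraries), 9930111J21Rik2 (−0.0251 and −0.0789 to 0.135), Fnta (−0.000228 and −0.0163 to 0.146) and Fntb (−0.00306 and −0.0134 to 0.0755). The value of Iigp1 is limited by its scatter, with 876 counts in knockout library 2 and 4 to 37 in the other 5.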

Other observations

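Knockout library 2 also led in a group of genes outside the family. The ranking covered 8790 genes with a mean of at least 5 CPM. Gm, Rik and clone names, immunoglobulin heavy and light chain genes and T cell receptor genes were left out of it. There the largest ratios to the mean of knockout libraries 3 and 4 were those of Serpina3f (3.83), an interferon-inducible serine protease inhibitor gene, and Tgtp2 (2.33). Next were the interleukin-12 receptor subunit Il12rb1 (2.17), Gbp6 (2.16), Serpina3g (2.04), Igj (2.03) and Ffar2 (1.99), a receptor of short-chain fatty acids. Gbp7, Gbp2, Nlrc5 (1.74), an activator of MHC class I genes, Igtp and the MHC class I gene H2-Q7 (1.72) followed. Serpina3f was at 36.5, 9.53 and 9.53 CPM in knockout and 2.11, 7.30 and 2.77 in wild type. H2-Q7 was at 423, 256 and 237 CPM in knockout and 176, 270.1 and 182 in wild type, so in wild type library 3 was again the highest.

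Genes whose RefSeq window held both an ISRE and a GAS match were described in the same way. Of 50 such tested genes 40 (80%) had a positive log2 difference, with a median of 0.17, and 26 (52%) were highest in knockout library 2. Without GBP and IRG genes there were 42, of which 76.2% were positive with a median of 0.11 and 42.9% were highest in that library. Of 294 genes with an ISRE match but no window holding both matches, 57.5% were positive and 25.2% were highest in it. Some of these may have a GAS match in another window. Of 738 with a GAS match and no ISRE match in any window, the shares were 50.9% and 20.1%. Of 8162 genes with neither match 47.5% were positive with a median of −0.01 and 18.8% were highest in it. These shares were chosen for description after the member values were seen, and no test was made on them.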
